A study of Homo sapiens with 12 samples.

Results

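DNA replication in S phase uses a fixed order of protein machines, and 37 genes that encode them were followed here in KELLY, a human neuroblastoma cell line in which MYCN is amplified. The genes were chosen by symbol: the MCM2 to MCM7 helicase and its loaders, the factors that activate it, the sliding clamp and its loader, the replicative polymerases and primase, the enzymes that join lagging strand fragments and make deoxynucleotides, and several S phase partners and regulators. All 37 symbols were found among the 55771 gene rows of the deposited table, and all 37 were among the 20454 genes with enough signal to be tested. The 12 libraries fall into 3 groups of 4: cells given the BPS1 oligonucleotide, cells given the BPS2 oligonucleotide and cells given a control oligonucleotide. In every group the cells received a morpholino, a type of antisense molecule without charge, carried by a lipid reagent together with a DNA leash. Each complex was used at 50 nM, in medium with 4% serum, for 48 h, and total RNA was sequenced after ribosomal RNA had been depleted. BPS2 columns were assigned through the sample titles, because the description field of those samples reads KPAS, and all BPS2 values depend on the titles. KELLY is a single line, and how BPS1 and BPS2 differ in sequence or target is not given in the sources used here.

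Before S phase, origins are licensed when CDC6 and CDT1 help to load the MCM2 to MCM7 ring onto DNA. The ring becomes an active helicase when CDC45 and the GINS complex join it, after which primase and polymerase alpha lay primers, the clamp PCNA is loaded by replication factor C, and polymerases epsilon and delta copy the strands. Many of these genes are transcribed at the boundary of G1 and S under the E2F factors, which the retinoblastoma proteins hold back in resting cells. Neuroblastoma lines with extra MYCN cycle fast in culture and carry these transcripts at high levels.

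The libraries differed little in depth. Totals of the deposited normalized counts were 29.6 to 33.3 M, and the value of 1 read, seen as steps among low values, was 0.940 to 1.09, which gives an estimate of 29.1 to 31.8 M reads per library. Among the members, E2F1 was in whole multiples of that step in all 12 libraries, and the other 36, each with more than 1 annotated transcript, were not. In BPS1 replicate 1, for example, E2F1 rested on 4531 reads, with a 95% exact Poisson interval of 4400 to 4665 that covers counting error only. BPS1 replicate 4 and control replicate 1 stood apart in the log2 deviation of a library from the median of each gene. Across genes, its SD was 0.594 in BPS1 replicate 4, 0.471 in control replicate 1 and 0.377 to 0.425 in the remaining 10 libraries. In the same 2 libraries the deviation also rose most with transcript GC content (Spearman's rho across protein-coding genes of 0.374 and 0.262, against −0.233 to 0.216 in the others). Results are therefore given with all 12 libraries and again with these 2 omitted. The study asked which transcripts change when NEAT1_2, the long form of a non-coding RNA that builds paraspeckles, is raised. NEAT1 had 1 row, in which the forms are not separated, at 1414 to 2380 in BPS1, 3912 to 4853 in BPS2 and 6494 to 7074 in control libraries, and it was called lower against control in BPS1 (log2 fold change −1.79 ± 0.13, adjusted p = 6.0e-06 by limma) and in BPS2 (−0.69 ± 0.13, adjusted p = 0.0239). Of the members, 22 are overlapped by another annotated gene, 7 of them by one on the other strand with a mean of at least 500, and those that bear on a result are named beside it. Markers of adrenergic neuroblastoma cells were abundant, with summed normalized counts of 211193 to 269886 in BPS1, 250128 to 265891 in BPS2 and 281044 to 337575 in control libraries. Of these 13 markers, 1 was called higher and 7 lower in BPS1 against control (median log2 fold change −0.33), and 0 higher and 3 lower in BPS2 (median −0.18). Over all genes tested, 4.29% were called higher and 4.32% lower in BPS1, and 0.821% higher and 0.386% lower in BPS2. All genes with a mitochondrial (MT-) symbol together took 7.31 to 7.74% of the total in BPS1, 7.93 to 8.23% in BPS2 and 8.15 to 9.23% in control libraries. Of the 13 mitochondrial genes that encode proteins, 6 were called lower in BPS1 and 2 in BPS2. The part of either shift in the results was not tested. Summed immune markers stayed between 19.9 and 49.5 and epithelial markers between 70.9 and 98.9 over the 12 libraries, and summed fibroblast markers lay between 4469 and 6024. Whether replicates were separate cultures is not stated in the labels, so p-values reflect variation among the libraries alone, part of which may be technical.

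With BPS1, 5 of the 37 genes were called against control and the other 32 were not. POLA1, the catalytic subunit of polymerase alpha, fell to 0.604 of its control level, and RRM1, the large subunit of ribonucleotide reductase, rose 1.31-fold. CDT1, the licensing factor, rose 1.49-fold, and the primase subunit PRIM1 and the polymerase delta subunit POLD3 rose by 0.32 and 0.29 on the log2 scale. A gene was called when limma, fitted to log2(normalized count + 1), gave it a p under 0.05 after Benjamini-Hochberg adjustment across all 20454 genes. The 4 higher members are 10.8% of the 37, against 4.29% of all genes tested, and the 1 lower member is 2.7%, against 4.32% of all genes. The log2 fold change lay within ±0.2 for 28 of the 37 (75.7%, against 52.1% of all genes tested), and its median was 0.04, against −0.00036 over all genes tested. At an unadjusted p under 0.05 there were 10 members (27% of the 37), near the 22.5% of all genes tested. The PRIM1 call was lost when any of 10 single libraries was left out, and the POLD3 call when any of 4 was. In bulk RNA a smaller share of cells in S phase and less of a transcript per cell cannot be told apart.

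With BPS2 no member was called in either direction against control, where 0.821% of all genes tested were called higher and 0.386% lower by limma. At an unadjusted p under 0.05 there were 3 members, CDT1, CDC6 and MCM5 (8.11% of the 37, against 11.4% of all genes tested). The log2 fold change was within ±0.2 for 35 of the 37 members (94.6%, against 63.8% of all genes), with a median of 0.05. Both comparisons use the same control libraries, so values are given side by side and likeness between them is not read as a result. DESeq2 and edgeR were not run, since most members' values are not whole reads. In the direct comparison of BPS2 with BPS1, POLA1 was called higher and RRM1 lower, which is 2.7% of the members in each direction, against 2.3% and 1.63% of all genes tested.

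Without BPS1 replicate 4 and control replicate 1 more members were called, as were more genes overall. These 2 libraries were picked for their spread in the same values. Adjusted p-values without them, here and below, are therefore likely too small and serve as a description. Against control, BPS1 then had 5 higher members (MCM5, CDT1, RFC4, POLD3 and RRM1, 13.5%, against 6.34% of all genes) and 4 lower ones (MCM3, POLA1, TYMS and UHRF1, 10.8%, against 7.22%). BPS2 had 6 higher members (MCM3, MCM5, MCM6, CDT1, CDC45 and RFC4, 16.2%, against 5.63% of all genes) and 0 lower ones, where 3.71% of all genes were lower. Between BPS2 and BPS1 there were 12 higher members (MCM3, MCM7, CDC6, CDC45, GINS3, PCNA, POLA1, FEN1, LIG1, TYMS, UNG and UHRF1, 32.4%, against 10.3% of all genes) and 2 lower ones (POLD3 and RRM1, 5.41%, against 6.81%). The counts of members thus depended on these 2 libraries, whereas the calls of POLA1, RRM1, CDT1 and POLD3 in BPS1 were made with and without them.

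**Figure D1:**
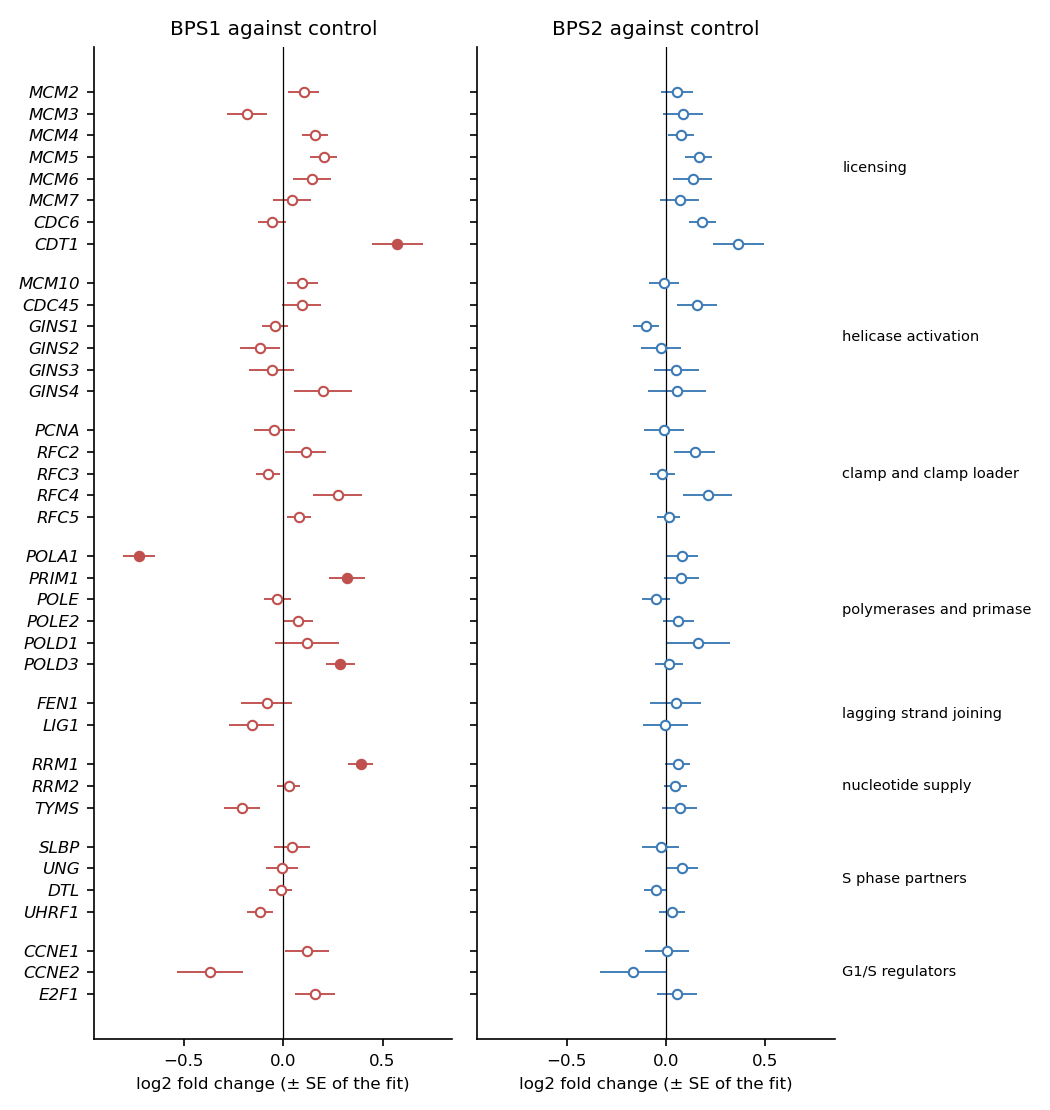
Log2 fold change of each of the 37 genes on the horizontal axis, BPS1 against control on the left and BPS2 against control on the right, with the standard error of the fit as a bar, n = 4 libraries per group. Filled points passed the limma test at an adjusted p under 0.05: the 5 filled points are all in BPS1, with POLA1 at −0.73 and CDT1 at 0.57 the outermost, and no point is filled in BPS2.

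Levels differed widely between the members. Per kilobase of transcript, the mean over the 12 libraries was 6867 normalized counts for PCNA, 5399 for TYMS, 4706 for MCM3, 4255 for RRM2 and 4065 for MCM2, the top 5 of the 37. At the other end stood POLA1 at 327, the cyclin E genes CCNE1 and CCNE2 at 311 and 219.8, and GINS4 at 169, with a median over the 37 of 1209.6. Within complexes the levels were uneven: the MCM2 to MCM7 subunits form a ring in equal numbers, yet MCM6 at 1199.9 and MCM4 at 1800.3 lay well under MCM3 on this per-kilobase scale. Neighbours in the order, such as RRM2 and MCM2 or MCM7 and MCM5, lay within the spread of their libraries.

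**Figure D2:**
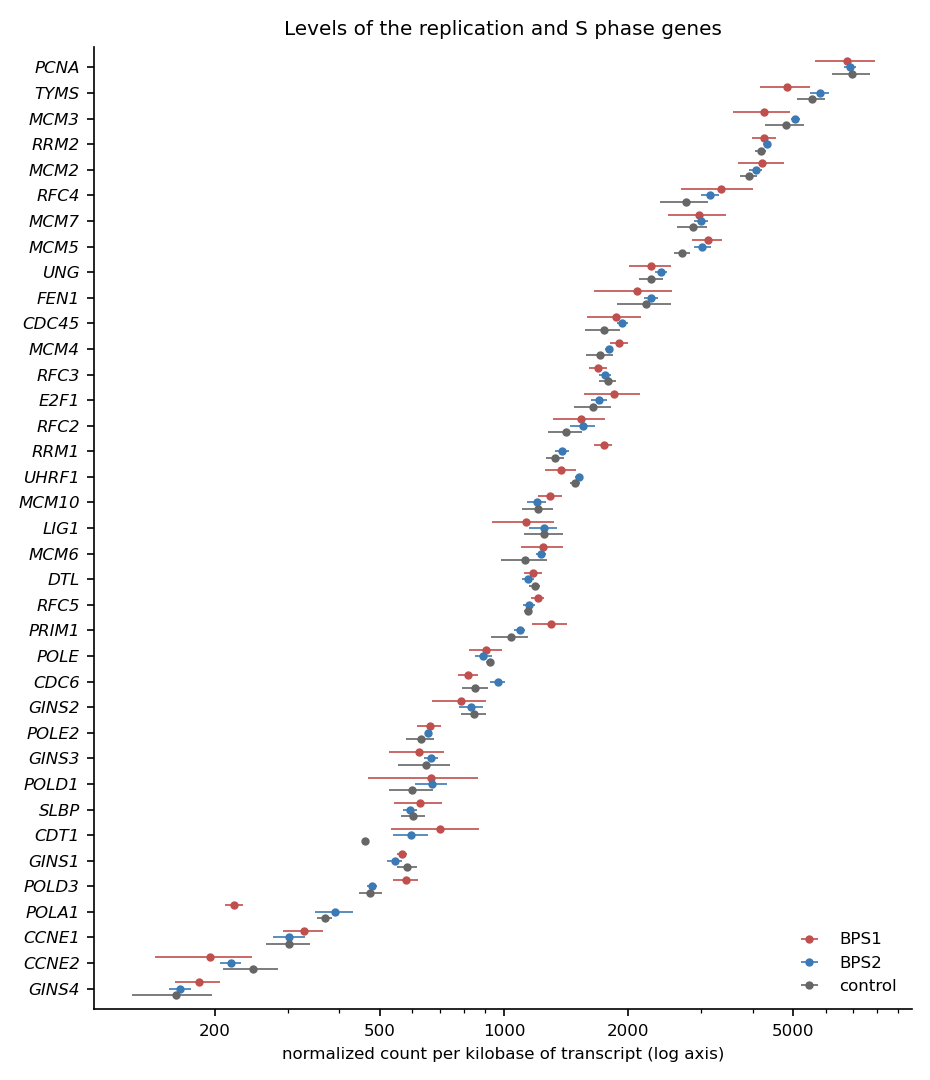
Mean normalized count per kilobase of transcript (log axis) for each of the 37 genes in BPS1, BPS2 and control libraries, with the SD over 4 libraries as a bar, genes ordered by their mean over all 12. PCNA at 6867 and GINS4 at 169 mark the ends of the order, and the 3 groups lie close together for most genes, POLA1 and RRM1 being apart in BPS1.

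Among the 8 licensing genes, CDT1 was the 1 called in BPS1 and 0 were called lower. Counts per role, here and below, stand against 4.29% of all genes tested called higher and 4.32% lower in BPS1. In BPS2 the shares of all genes were 0.821% and 0.386%. For so few genes a count of 0 is near these shares and is not read as a result about the role. CDT1 (ENSG00000167513, chr16:88803213-88809258, plus strand) had normalized counts of 2018, 1978, 2002 and 3083 in BPS1, 1657, 2025, 2046 and 2003 in BPS2 and 1507, 1456, 1497 and 1526 in control libraries. Every BPS1 and every BPS2 library lay above every control library, and BPS1 replicate 4 stood far above the rest of its group. The log2 fold change was 0.57 ± 0.13 in BPS1, which limma called (adjusted p = 0.0153), and 0.36 ± 0.13 in BPS2, where it did not pass (adjusted p = 0.272). CDT1 has the highest transcript GC content of the members, 64.9%, and its part in the result was not tested beyond the removal of a GC trend per library, after which the BPS1 value was 0.48 ± 0.08 (adjusted p = 0.00157) and the BPS2 value 0.28 ± 0.08 (adjusted p = 0.0996). Without the 2 libraries that stood apart, CDT1 passed in both, at 0.42 ± 0.08 in BPS1 (adjusted p = 0.00426) and 0.37 ± 0.07 in BPS2 (adjusted p = 0.0115). In BPS1 the call was lost when the fit held only the groups compared (adjusted p = 0.0508).

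CDC6, the partner of CDT1 in loading the ring, separated BPS2 from BPS1 libraries. Its normalized counts were 4740.0, 4384, 4638 and 4817 in BPS2, 3709.9, 3813, 4178 and 4056 in BPS1 and 3774, 4437, 4249 and 3935 in control libraries. All BPS2 libraries lay above all BPS1 libraries, while the control libraries overlapped both. BPS2 stood 0.24 ± 0.07 above BPS1 on the log2 scale, short of the threshold (limma adjusted p = 0.0784), and passed without the 2 libraries that stood apart (0.25 ± 0.06, adjusted p = 0.0122). With all libraries CDC6 also passed there under quantile scaling (0.25 ± 0.06, limma adjusted p = 0.0465). Against control its log2 fold change was −0.06 ± 0.07 in BPS1 (adjusted p = 0.692) and 0.18 ± 0.07 in BPS2 (adjusted p = 0.31).

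MCM5, a subunit of the ring, had 10396, 10627, 10621 and 12337 normalized counts in BPS1, 9960.0, 10669.7, 11141 and 10944 in BPS2 and 10147, 9349, 9231 and 9395 in control libraries. The BPS1 libraries lay above all control libraries, and the BPS2 libraries overlapped them only through BPS2 replicate 1 and control replicate 1. The log2 fold changes of 0.20 ± 0.07 in BPS1 and 0.16 ± 0.07 in BPS2 did not pass (limma adjusted p = 0.0827 and 0.36) and did so without the 2 libraries that stood apart, at 0.18 ± 0.04 and 0.19 ± 0.04 (adjusted p = 0.0184 and 0.0142). With all libraries MCM5 also passed in BPS1 under quantile scaling (0.20 ± 0.05, limma adjusted p = 0.0188) and with a GC trend removed (0.19 ± 0.05, adjusted p = 0.0212). MCM3, another ring subunit and the most abundant licensing transcript per kilobase, had 12473, 12272, 13007 and 16764 in BPS1, 15998, 16139, 16015 and 16881 in BPS2 and 17939.7, 14716, 14491 and 14450.5 in control libraries. In BPS1 3 libraries lay below all control libraries and replicate 4 lay among them, while control replicate 1 was the highest of all 12. With all libraries MCM3 did not pass in BPS1 in the main fit (−0.18 ± 0.10, limma adjusted p = 0.309) but did under quantile scaling (−0.22 ± 0.06, adjusted p = 0.0271). Without BPS1 replicate 4 and control replicate 1 it was called lower in BPS1 (−0.21 ± 0.03, adjusted p = 0.00258) and higher in BPS2 (0.16 ± 0.03, adjusted p = 0.0142). Without those 2 libraries, MCM3 and MCM5 were thus called in opposite directions in BPS1. Over the 12 libraries MCM2 ranged from 13740.3 to 18182, MCM4 from 6532 to 8389.8, MCM6 from 3584 to 5432 and MCM7 from 7849 to 10879.5. MCM2, MCM4, MCM6 and MCM7 had log2 fold changes of 0.10, 0.16, 0.15 and 0.04 in BPS1 and 0.05, 0.08, 0.13 and 0.07 in BPS2, none of which passed. In BPS2 all 8 licensing genes had a positive log2 fold change, between 0.05 and 0.36, and none passed with all libraries in the main fit. Values were also positive for 27 of the 37 members and for 10341 of the 20454 genes tested. The genes share the same libraries, so their signs are not independent.

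Of the 6 genes that activate the helicase, 0 were called in either comparison with control. CDC45, which joins the ring and travels with the fork, had 3432, 3737, 3674 and 4744 normalized counts in BPS1, 3926, 4011, 4001 and 4225 in BPS2 and 4137, 3609.9, 3526 and 3285 in control libraries. The 3 groups overlapped, with BPS1 replicate 4 the highest library and control replicate 1 the highest of its group. Its log2 fold change was 0.09 ± 0.10 in BPS1 (adjusted p = 0.638 by limma) and 0.16 ± 0.10 in BPS2 (adjusted p = 0.608), and 0.22 ± 0.05 in BPS2 without the 2 libraries that stood apart (adjusted p = 0.0212). GINS1, a subunit of the 4-part GINS complex, had 1854, 1903, 1819.5 and 1792 in BPS1, 1822, 1808, 1654 and 1781 in BPS2 and 1828, 2040.3, 1919.6 and 1800.0 in control libraries. These groups overlapped as well, and the spread within a group was small (SD of 47.7 in BPS1, 76.8 in BPS2 and 108 in control libraries). Its log2 fold change was −0.04 ± 0.06 in BPS1 and −0.10 ± 0.06 in BPS2 (limma adjusted p = 0.77 and 0.61). The other 4, MCM10 and GINS2 to GINS4, had log2 fold changes between −0.12 and 0.20 in BPS1 and between −0.02 and 0.06 in BPS2. MCM10, which helps to start the fork, ranged from 3436 to 4445, GINS2 from 1865 to 2559 and GINS3 from 1268 to 1779. GINS4, with the lowest level, also scattered most in this group, from 455 in control replicate 1 to 796 in BPS1 replicate 2.

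The clamp and its loader had 0 of 5 members called. PCNA, the ring that tethers polymerases to DNA, had 8511, 8398, 8424 and 11484 normalized counts in BPS1, 8927, 9318, 9409 and 9732 in BPS2 and 10835, 9399, 8986 and 8572 in control libraries. BPS1 replicate 4 and control replicate 1 were the 2 highest libraries and the rest overlapped. The log2 fold changes were −0.05 ± 0.10 in BPS1 and −0.01 ± 0.10 in BPS2 (limma adjusted p = 0.845 and 0.984). RFC4, a small subunit of the loader, had 4241, 4443, 4431 and 6282 in BPS1, 4327, 4852, 4656 and 4462 in BPS2 and 4739, 3923, 3758 and 3505 in control libraries. Control replicate 1 lay among the treated libraries and the other 3 control libraries lay below all of them. The log2 fold changes were 0.27 ± 0.12 in BPS1 and 0.21 ± 0.12 in BPS2 (limma adjusted p = 0.204 and 0.571), and 0.23 ± 0.06 and 0.30 ± 0.05 without the 2 libraries that stood apart (adjusted p = 0.02 and 0.00783). RFC4 overlaps EIF4A2 on the other strand, a translation factor gene with mean normalized counts of 18155 in BPS1, 19624 in BPS2 and 13705 in control libraries that was called higher in both comparisons (0.40 ± 0.07 in BPS1, limma adjusted p = 0.00355; 0.52 ± 0.07 in BPS2, adjusted p = 0.00307). Whether the counting used strand is not given in the sources used here, and a part of EIF4A2 reads in the RFC4 value was not tested. The other loader subunits ranged over the 12 libraries from 2179 to 3104 for RFC2, from 3852 to 4464 for RFC3 and from 1816 to 2037 for RFC5. RFC2, RFC3 and RFC5 had log2 fold changes of 0.11, −0.08 and 0.08 in BPS1 and 0.14, −0.02 and 0.01 in BPS2, with limma calling none of them.

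The polymerase and primase genes held the largest log2 fold change of the members against control, the fall of POLA1 in BPS1. PRIM1, the other catalytic subunit of the polymerase alpha-primase complex, was called higher in BPS1, but only narrowly and not under most settings. POLA1 (ENSG00000101868, chrX:24693919-24996986, plus strand) had 1159, 1192, 1235 and 1295 normalized counts in BPS1, 2017, 2175, 1934 and 2450.4 in BPS2 and 2120.3, 1924, 2029 and 2009 in control libraries. Every BPS1 library lay far below every BPS2 and control library, and BPS2 and control overlapped. The means were 1221 ± 58.8 in BPS1, 2144 ± 227 in BPS2 and 2021 ± 80.6 in control libraries (SD, n = 4 each). The log2 fold change was −0.73 ± 0.08 in BPS1 (adjusted p = 0.00015 by limma) and 0.08 ± 0.08 in BPS2 (adjusted p = 0.779), and BPS2 stood 0.81 ± 0.08 above BPS1 (adjusted p = 0.000104). The exact two-sided permutation p was 0.0286 for BPS1 against control, the smallest that 4 against 4 libraries allow. POLA1 was called in BPS1 under all 26 settings tried, and without the 2 libraries that stood apart its log2 fold change was −0.73 ± 0.08 (adjusted p = 0.000172).

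PRIM1 (ENSG00000198056, chr12:56731596-56752373, minus strand), the catalytic subunit of primase, had 1879.7, 1609, 1724 and 2010.2 normalized counts in BPS1, 1471, 1489, 1567 and 1554 in BPS2 and 1446, 1646, 1405 and 1288 in control libraries. BPS1 overlapped control through its replicate 2 and control replicate 2, and lay above all BPS2 libraries. The rise in BPS1 was close to the threshold (0.32 ± 0.09, limma adjusted p = 0.042), and it passed under 9 of the 26 settings, with adjusted p between 0.0285 and 0.115 when 1 library was left out and 0.0665 without the 2 libraries that stood apart. Omission of any library other than BPS1 replicate 2 or control replicate 2 ended this call. PRIM1 also overlaps NACA on the same strand, at a far higher count and with a log2 fold change of 0.14 in BPS1 (limma adjusted p = 0.546). The ratio of POLA1 to PRIM1 normalized counts was 0.680 ± 0.0586 in BPS1, 1.41 ± 0.145 in BPS2 and 1.41 ± 0.168 in control libraries (SD, n = 4 each). The BPS1 ratios did not overlap those of either other group, which restates the opposite calls of these genes and is given as a description. The other 2 subunits of the complex, POLA2 and PRIM2, had log2 fold changes of 0.16 ± 0.10 and 0.09 ± 0.10 in BPS1 and 0.06 ± 0.10 and 0.25 ± 0.10 in BPS2, and neither passed.

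POLD3 (ENSG00000077514, chr11:74493851-74669117, plus strand), a subunit of polymerase delta, had 2149, 2327, 2357 and 2034 normalized counts in BPS1, 1904, 1778, 1830.4 and 1819 in BPS2 and 1665, 1785, 1893 and 1923 in control libraries. All BPS1 libraries lay above all BPS2 and all control libraries. The log2 fold change in BPS1 was 0.29 ± 0.07 (limma adjusted p = 0.0264), and 0.29 ± 0.06 without the 2 libraries that stood apart (adjusted p = 0.00663). POLD3 was called in BPS1 under 19 of the 26 settings. The call was lost with no filter on low values (adjusted p = 0.0619), under a replicate block (0.0766) and with only the groups compared (0.0996). It was also lost in turn without BPS1 replicate 2 or 3 (adjusted p = 0.0779 and 0.0825) and without control replicate 1 or 2 (0.0593 and 0.0734). BPS2 stood at −0.27 ± 0.07 from BPS1 (adjusted p = 0.0546). POLD3 overlaps the non-coding RNA gene AP001372.2 on the same strand, with mean normalized counts of 151 in BPS1, 137 in BPS2 and 114 in control libraries. AP001372.2 was not called in BPS1 (0.40 ± 0.19, limma adjusted p = 0.244), and a part of its reads in the POLD3 value was not tested. The catalytic subunits of the leading and lagging strand enzymes were not called: POLE, with 6504 to 7913 in BPS1, 6628 to 7402 in BPS2 and 7026 to 7413 in control libraries, had a log2 fold change of −0.03 in BPS1, and POLD1, with 1886 to 3318 in BPS1, 1992 to 2439.6 in BPS2 and 1783 to 2376 in control libraries, had 0.12. The POLD1 range in BPS1 was set by replicate 4, whose value lay far above the next highest of any group. POLE2, a small subunit of polymerase epsilon, ranged from 1038 to 1240.2 and was at 0.07 in BPS1 and 0.06 in BPS2.

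**Figure D3:**
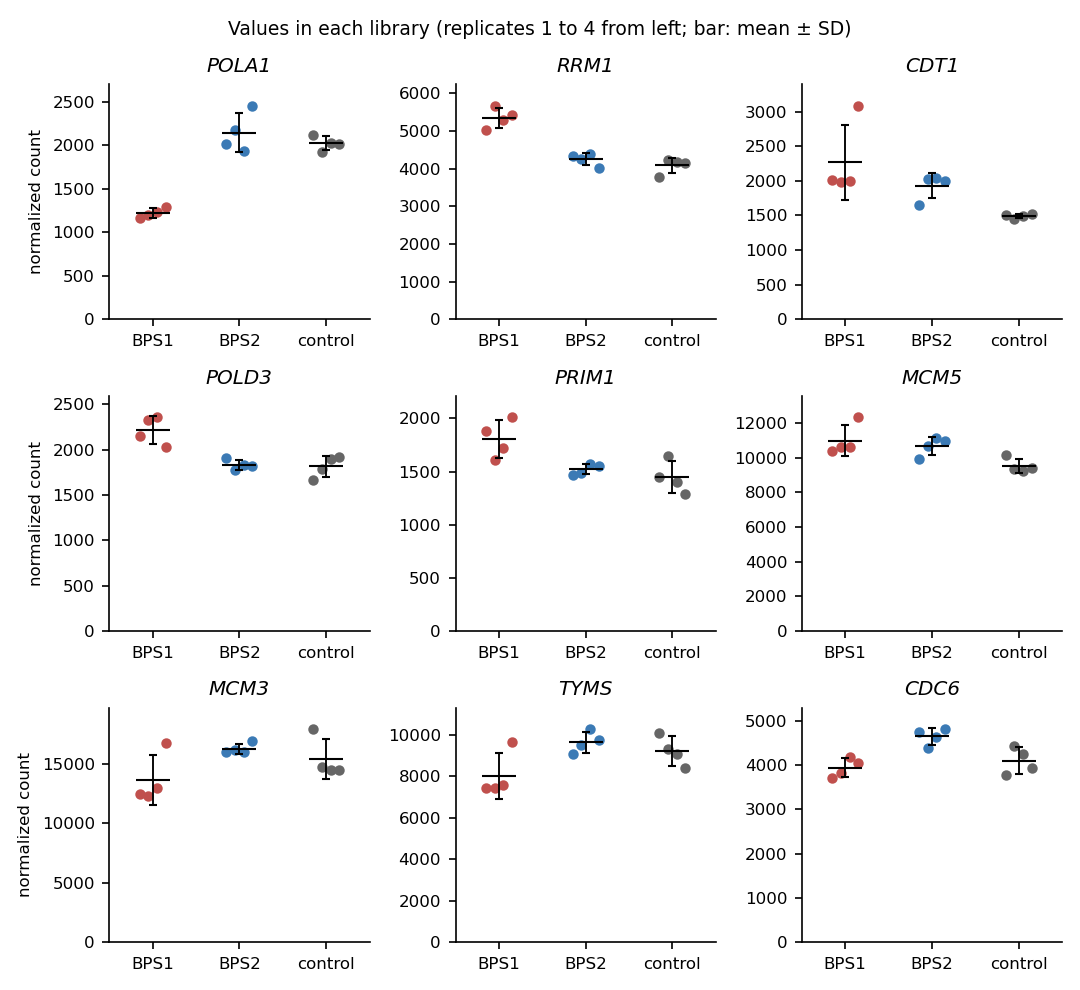
Normalized counts of 9 genes in each library (each panel has its own vertical axis, from 0), with BPS1, BPS2 and control from left to right, replicates 1 to 4 from left within a group, and the mean ± SD of 4 libraries in black. The 4 BPS1 libraries of POLA1 sit at 1159 to 1295, under all others, those of RRM1 sit at 5023 to 5672, above all others, and for CDT1, MCM3 and TYMS the highest BPS1 point is replicate 4.

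Lagging strand fragments are trimmed by FEN1 and sealed by LIG1, and neither passed against control. FEN1 had 4324, 4341, 4264 and 6349.6 normalized counts in BPS1, 4929, 5194, 5264 and 5426 in BPS2 and 6139.6, 5037, 4626 and 4478 in control libraries, and the groups overlapped. LIG1 had 3796, 3286, 3448 and 4751 in BPS1, 3923, 4326, 4628 and 4000.4 in BPS2 and 4859.9, 4287, 3942 and 3869 in control libraries. For both genes 3 BPS1 libraries lay below all BPS2 and all control libraries, and replicate 4 lay among or above them. The log2 fold changes in BPS1 were −0.08 ± 0.13 and −0.16 ± 0.11 (limma adjusted p = 0.763 and 0.451), and in BPS2 0.05 ± 0.13 and −0.0041 ± 0.11. Between BPS2 and BPS1, without the 2 libraries that stood apart, FEN1 was at 0.27 ± 0.05 and LIG1 at 0.26 ± 0.07 (adjusted p = 0.00375 and 0.0236), against 0.13 ± 0.13 and 0.16 ± 0.11 with all libraries (adjusted p = 0.683 and 0.548).

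Ribonucleotide reductase makes deoxynucleotides from a large subunit, RRM1, and a small subunit, RRM2, whose amount follows S phase. RRM1 (ENSG00000167325, chr11:4094707-4138876, plus strand) had 5023, 5672, 5309 and 5429 normalized counts in BPS1, 4352, 4270.3, 4383 and 4026 in BPS2 and 3792, 4236, 4173 and 4161 in control libraries. All 4 BPS1 libraries lay above every BPS2 and control library, and BPS2 overlapped control. Its log2 fold change was 0.39 ± 0.06 in BPS1 (adjusted p = 0.00202 by limma) and 0.06 ± 0.06 in BPS2 (adjusted p = 0.798), and BPS2 stood at −0.33 ± 0.06 from BPS1 (adjusted p = 0.00949). The call in BPS1 was made under all 26 settings, with 0.35 ± 0.05 without the 2 libraries that stood apart (adjusted p = 0.00141). RRM2, by contrast, lay at 13229 to 15327 in BPS1, 14466 to 15167 in BPS2 and 13733 to 14620.0 in control libraries, with log2 fold changes of 0.03 ± 0.06 and 0.05 ± 0.06. The ratio of RRM1 to RRM2 normalized counts was 0.366 ± 0.0127 in BPS1, 0.288 ± 0.0122 in BPS2 and 0.285 ± 0.00627 in control libraries (SD, n = 4 each), a description that restates the RRM1 call. The ratio of POLD3 to POLD1, by contrast, overlapped between groups, at 1.03 ± 0.293 in BPS1, 0.803 ± 0.102 in BPS2 and 0.893 ± 0.154 in control libraries. That of CDT1 to CDC6 was 0.479 to 0.760 in BPS1, above all ratios of the other groups, at 0.350 to 0.462 in BPS2 and 0.328 to 0.399 in control libraries.

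TYMS, thymidylate synthase, makes the thymidine nucleotide of DNA and was not called against control. Its normalized counts were 7446, 7420.2, 7588 and 9676 in BPS1, 9087, 9504, 10295 and 9747 in BPS2 and 10100.2, 9347, 9066 and 8396 in control libraries. In BPS1 3 libraries lay below all libraries of both other groups and replicate 4 lay among them. The log2 fold change in BPS1 was −0.21 ± 0.09 with all libraries (limma adjusted p = 0.194), and −0.25 ± 0.05 without the 2 that stood apart (adjusted p = 0.00825). BPS2 stood 0.27 ± 0.09 above BPS1 (adjusted p = 0.123), and 0.37 ± 0.05 without those libraries (adjusted p = 0.000617). With all libraries TYMS also passed in this comparison under quantile scaling (0.27 ± 0.07, limma adjusted p = 0.0364). TYMS overlaps ENOSF1 on the other strand, which was not called in BPS1 (limma adjusted p = 0.216). Among 21 other genes of nucleotide supply, MTHFD1 of the folate cycle was called higher in BPS1 (0.21 ± 0.06, limma adjusted p = 0.0313) and 0 lower. The salvage kinase TK1, another gene of S phase, lay at 2008 to 2817 in BPS1, 2377 to 2743 in BPS2 and 2081 to 2575 in control libraries and was not called. Between BPS2 and BPS1 the salvage kinases DCK and CMPK1 were called higher (0.81 ± 0.15 and 0.35 ± 0.08, adjusted p = 0.00715 and 0.0234).

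Of the 4 S phase partners 0 were called against control. UNG, which removes uracil from DNA, had 4371, 4566, 4359 and 5508 normalized counts in BPS1, 4713, 5019, 5054 and 5059 in BPS2 and 5162, 4617, 4543 and 4481 in control libraries, and the groups overlapped. Its log2 fold change was −0.0045 ± 0.08 in BPS1 and 0.08 ± 0.08 in BPS2 (limma adjusted p = 0.983 and 0.786). UHRF1, which guides DNMT1 to newly copied DNA, had 4416, 4064, 4302 and 4956 in BPS1, 4969, 4761, 4929 and 4966 in BPS2 and 4979, 4826, 4667 and 4733 in control libraries, with 3 BPS1 libraries below all others. Its log2 fold change in BPS1 was −0.12 ± 0.07 (limma adjusted p = 0.316), and −0.16 ± 0.04 without the 2 libraries that stood apart (adjusted p = 0.0366). DNMT1 itself, the maintenance DNA methyltransferase, which is not one of the 37, was called lower in BPS1, at 3818 to 4045 in BPS1, 4555 to 5300.3 in BPS2 and 4954 to 5483 in control libraries (−0.40 ± 0.06, limma adjusted p = 0.00189). SLBP, which binds histone mRNA, ranged from 1098 to 1479, and DTL, which targets CDT1 for destruction, from 4985 to 5585. SLBP and DTL had log2 fold changes of 0.04 and −0.01 in BPS1 and −0.03 and −0.05 in BPS2.

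Of the 3 G1/S regulators 0 were called in either comparison with control. E2F1, a factor that drives many of these genes, had 4288, 4238, 4277 and 5684 normalized counts in BPS1, 3977, 4307, 4402 and 4328 in BPS2 and 4711, 3958, 4055 and 3732 in control libraries. The groups overlapped, BPS1 replicate 4 and control replicate 1 being the 2 highest libraries, and the log2 fold changes were 0.16 ± 0.10 in BPS1 and 0.05 ± 0.10 in BPS2 (limma adjusted p = 0.383 and 0.899). CCNE2, a cyclin that drives entry into S phase, had 861, 609.9, 674 and 446 in BPS1, 683, 739, 780.5 and 704 in BPS2 and 762, 970.1, 872 and 682 in control libraries. It ranged from 446 in BPS1 replicate 4 to 970.1 in control replicate 2, and its log2 fold change of −0.37 ± 0.17 in BPS1 did not pass (limma adjusted p = 0.214). CCNE2 overlaps INTS8 on the other strand, which was called lower in BPS1 (−0.85 ± 0.08, limma adjusted p = 4.15e-05), and a part of INTS8 reads in the CCNE2 value was not tested. CCNE1, which ranged from 537 to 760.2, was at 0.12 in BPS1 and at 0.0036 in BPS2. Among 21 other G1/S regulators CDK4, the kinase partner of cyclin D, was called lower in BPS1 (−0.48 ± 0.10, adjusted p = 0.00903).

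The groups did not overlap, with every library of one beyond every library of the other, for few members. In BPS1 the 4 libraries lay above the 4 control libraries for MCM5, CDT1, POLD3 and RRM1, which is 10.8% of the members against 7.5% of all genes tested, and below them for POLA1, which is 2.7% against 6.81%. In BPS2 the 4 libraries lay above control for CDT1 (2.7% against 5.41% of all genes) and below control for 0 members (4.23% of all genes). BPS2 lay above BPS1 for CDC6 and POLA1 (5.41% against 6.08%) and below it for PRIM1, POLD3 and RRM1 (8.11% against 5.8%). Apart from BPS1 above control and BPS2 below BPS1, these shares were under those of all genes.

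Other genes of the same machinery are described from lists chosen for the pathway, with earlier results of these data known. The lists are therefore not an independent check. Their counts in BPS1 stand against 4.29% of all genes called higher and 4.32% called lower. Of 38 further fork and origin genes, 2 were called higher in BPS1, the origin recognition subunits ORC1 (0.34 ± 0.07, limma adjusted p = 0.0119) and ORC6 (0.27 ± 0.06, adjusted p = 0.0141), and 0 lower, with a list median of 0.09. ORC1 had 1727 to 2093 normalized counts in BPS1, 1506 to 1578 in BPS2 and 1372 to 1533 in control libraries, and in BPS1 it did not overlap control. Of 29 tested genes of S phase chromatin and repair, 6 were called higher and DNMT1 lower in BPS1, with a list median of 0.13. The higher ones included the histone chaperone ASF1A (0.62 ± 0.08, adjusted p = 0.000364), the checkpoint kinase CHEK1 (0.36 ± 0.07, adjusted p = 0.00622), BRCA2 (0.29 ± 0.07, adjusted p = 0.0217) and RAD18 (0.38 ± 0.10, adjusted p = 0.028), with BLM and ATRIP nearer the threshold. ASF1A had 1517 to 1709 in BPS1, 1057 to 1197 in BPS2 and 920.3 to 1076 in control libraries. Of 30 mitosis genes, NUSAP1 was called higher (0.21 ± 0.06) and KIF23 lower (−0.48 ± 0.09) in BPS1, with a list median of 0.04. In BPS2 against control limma called 0 genes of these lists. At an unadjusted p under 0.05 that comparison had 4 of 38 fork and origin genes (10.5%), 1 of 21 genes of nucleotide supply (4.76%), 2 of 21 G1/S regulators (9.52%), 2 of 29 genes of chromatin and repair (6.9%) and 0 of 30 mitosis genes, against 11.4% of all genes tested. Between BPS2 and BPS1 the calls were POLE4, TFDP2, ASF1A, ATRIP, CDK4, DNMT1 and KIF23, beside DCK and CMPK1 above. Of all genes tested, 2.3% were called higher and 1.63% lower in that comparison. POLE4, a small subunit of polymerase epsilon, was higher in BPS2 (0.64 ± 0.15, limma adjusted p = 0.0289), as were CDK4 (0.45 ± 0.10), DNMT1 (0.35 ± 0.06) and KIF23 (0.61 ± 0.09). ASF1A (−0.51 ± 0.08), ATRIP (−0.53 ± 0.13) and TFDP2 (−0.25 ± 0.06) were lower. The proliferation marker MKI67 lay at 12828 to 14775 in BPS1, 14343 to 15229.9 in BPS2 and 14074 to 15416 in control libraries, and was not called. TOP2A lay at 14073 to 22030.0 in BPS1, 15221 to 18586 in BPS2 and 16127 to 22445 in control libraries and was not called either.

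BPS1 replicate 4 was the highest of the 12 libraries for 19 of the 37 genes, and its median log2 deviation over the members was 0.225, against −0.0916 to 0.0818 in the other 11. The same library was at 0.136 over the other fork and origin genes and at 0.0989 over the mitosis genes, and at 0.0221 over all genes tested. Across the members, which are not independent, its deviation rose with transcript GC content (Spearman's rho 0.560, 37 genes), where CDT1 and POLD1, both near 65% GC, lay far above their means and CCNE2, with the lowest GC content of the members at 36.9%, lay far below its mean. In control replicate 1 rho was 0.289, and in BPS2 replicates 2 to 4 it was 0.371 to 0.418. The genes whose deviations over the 12 libraries were most like the median of the members were SLIRP (Pearson's r 0.998), CLTA (0.990), BANF1 (0.988), MRPS15 (0.987) and EIF4A1 (0.986), which share the same libraries and their depth, so these values are a description. Without BPS1 replicate 4 the median log2 fold change of the members in BPS1 was −0.0057, and without BPS1 replicate 1 it was 0.0869.

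**Figure D4:**
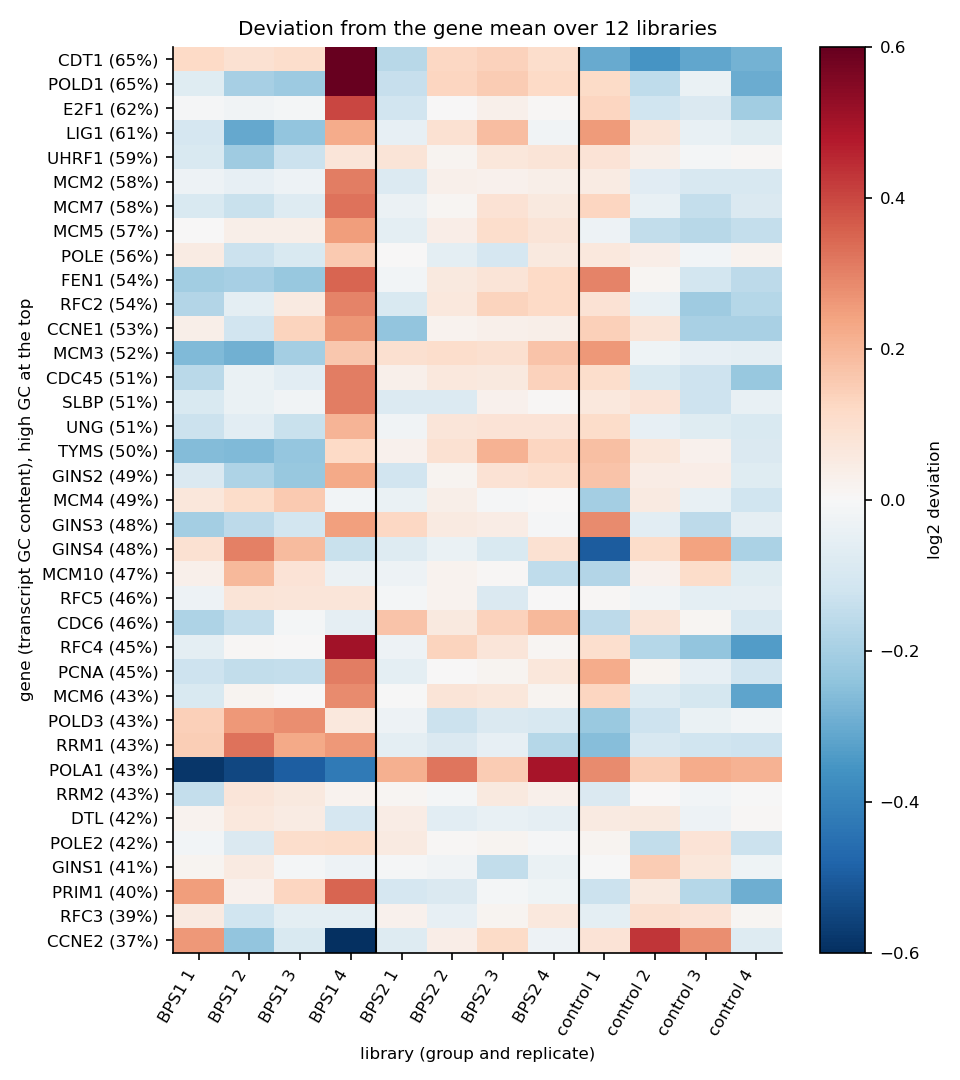
Log2 deviation of each of the 37 genes from its mean over 12 libraries (color, limited to ±0.6), with genes down the page from high to low transcript GC content and libraries across, BPS1, BPS2 and control from left to right. The fourth column, BPS1 replicate 4, is raised for most genes in the upper rows (rho with GC 0.560), and POLA1 is the row that is low in all 4 BPS1 libraries.

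Promoter sequences were taken from RefSeq (build GRCh38.p14), in windows of 300 bases that run 50 bases past each gene's start, and 32 of the 37 genes had an entry. MCM4, MCM5, GINS4, POLD3 and CCNE2 had none. They were searched on both strands for 4 forms of the E2F core (the words TTCCCGC and also TTCGCGC and also TTGCCGC and also TTGGCGC, where overlapping matches count separately), for the CHR element of G2/M genes (TTTGAA) and for the CCAAT box. An E2F core was found in 25 of 32 (78.1%), against 3564 of 27305 promoters in the table (13.1%). CCAAT was found in 19 of 32 (59.4%, against 35.7%) and TTTGAA in 1 (3.13%, against 15.4%). The members' windows were richer in GC, with a median of 68.0% against 58.3%, and these shares were not adjusted for GC. A match is a description and not a site of binding.

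Windows of 4 genes called in BPS1 are shown to set their E2F cores side by side, since POLA1 fell and RRM1, CDT1 and PRIM1 rose. Each is read 5′ to 3′ on the gene's strand, with E2F cores of either strand in capitals: POLA1 at chrX:24693668-24693967 on the plus strand, RRM1 at chr11:4094435-4094734 on the plus strand, CDT1 at chr16:88803539-88803838 on the plus strand and PRIM1 at chr12:56752274-56752573 on the minus strand.
POLA1: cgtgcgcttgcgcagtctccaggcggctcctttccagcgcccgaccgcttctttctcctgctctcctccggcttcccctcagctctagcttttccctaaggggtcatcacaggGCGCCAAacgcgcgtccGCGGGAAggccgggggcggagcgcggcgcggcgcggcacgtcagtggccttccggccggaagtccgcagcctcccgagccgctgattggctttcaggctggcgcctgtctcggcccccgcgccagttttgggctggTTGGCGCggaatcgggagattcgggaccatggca
RRM1: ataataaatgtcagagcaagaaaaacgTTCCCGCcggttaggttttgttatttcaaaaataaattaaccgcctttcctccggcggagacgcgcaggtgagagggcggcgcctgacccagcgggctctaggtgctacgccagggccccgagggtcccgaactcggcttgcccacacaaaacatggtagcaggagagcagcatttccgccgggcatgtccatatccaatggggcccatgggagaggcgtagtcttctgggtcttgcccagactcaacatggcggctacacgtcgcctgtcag
CDT1: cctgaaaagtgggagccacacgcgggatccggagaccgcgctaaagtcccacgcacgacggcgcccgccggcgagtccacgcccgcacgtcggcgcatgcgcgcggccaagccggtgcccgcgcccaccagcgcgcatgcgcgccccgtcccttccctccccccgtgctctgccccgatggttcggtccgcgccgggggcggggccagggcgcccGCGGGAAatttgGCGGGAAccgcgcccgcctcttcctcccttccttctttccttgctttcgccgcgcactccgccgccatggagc
PRIM1: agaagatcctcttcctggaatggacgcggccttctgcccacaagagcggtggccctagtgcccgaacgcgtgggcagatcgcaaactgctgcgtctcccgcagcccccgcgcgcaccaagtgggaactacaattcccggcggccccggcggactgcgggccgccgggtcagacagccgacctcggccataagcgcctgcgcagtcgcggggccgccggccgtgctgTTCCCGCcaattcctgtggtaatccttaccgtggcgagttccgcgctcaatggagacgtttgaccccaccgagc
POLA1 had 3 cores, the first bases of which lay at −137, −120 and 17 from the gene start. CDT1 had 2, at −35 and −23, and PRIM1 had 1, at −24. The 1 core of RRM1 lay farther out, at −223. By number of cores, POLA1 with 3 fell in BPS1, and CDT1 with 2 and RRM1 and PRIM1 with 1 each rose. MCM6 with 4 and MCM3, MCM7 and LIG1 with 3 each were not called in BPS1 with all libraries in the main fit. Any link between cores and the direction of change was not tested. RRM2, FEN1, CDC45, MCM10, POLD1, SLBP and CCNE1 had none of these words in the window.

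**Figure D5:**
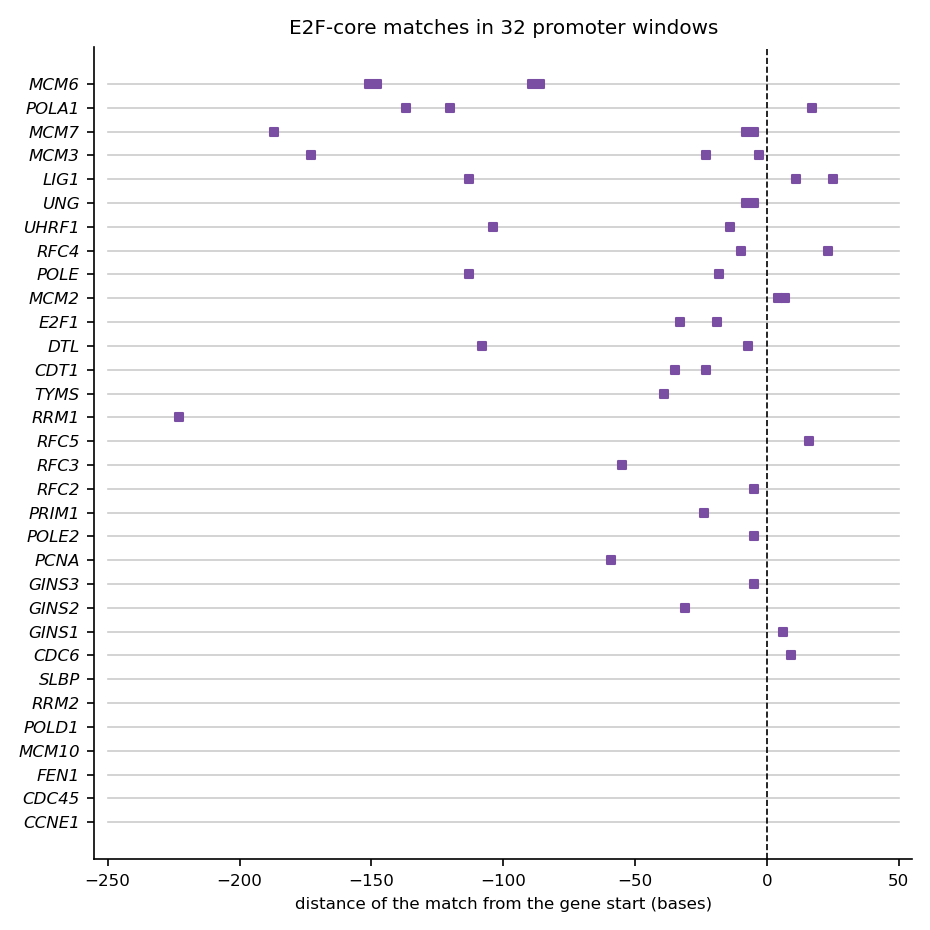
Distance of each E2F-core match from the gene start, in bases, in the 300-base windows of the 32 genes with an entry, genes with the most matches at the top. Matches gather near the start (dashed line), RRM1 has its single match at −223, and 7 genes at the bottom have none.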

How the data were processed

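Total RNA of 12 KELLY libraries was depleted of ribosomal RNA and sequenced as 100-base single reads from a stranded kit, per the labels' protocols. The authors deposited 1 table of normalized counts, a signal per gene that is scaled between libraries and is no longer whole reads for most genes. DESeq2, Salmon 0.8.2 and FastQC 0.11.7 appear, with the build GRCh38, in the submitters' processing notes, which give them no role. Genes of 10 or more in at least 4 libraries were kept (20454 of 55771 rows). log2(normalized count + 1) was fitted with limma 3.58.1 (R 4.3.3) with 1 mean per group over the 12 libraries and moderated variances with a trend, and p-values were adjusted by Benjamini-Hochberg over the genes tested. Fold changes are on this scale and slightly understate those of low genes. Single values were compared by exact two-sided permutation over 70 arrangements, and 0.0286 is the smallest p these allow. Errors are SD over libraries or the standard error of the fit. Group came from the sample titles. The fitting script was tested on simulated data for BPS1 against control. Where 100 genes were given a 1.25-fold change, the script found 7 of them. For a 1.5-fold change it found 44. It made 54 calls, 3 of them wrong. In this simulation changes of these sizes were thus mostly missed. Far fewer genes changed in it than the 877 higher and 883 lower called in the data for BPS1 against control. With fewer calls the adjusted threshold is stricter, so these shares are not rates for the members. A gene that was not called may still have changed. Positions and transcripts came from GENCODE 29, with 1 transcript per gene for lengths, and promoters from RefSeq. Whole multiples of a read's value were accepted within 0.001.

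The members and the other lists were chosen with earlier results of these data known. Full values are given for members that passed, for the 6 smallest p-values in each comparison, and for the most abundant member and the smallest p in each role. Genes of other lists are named where they passed, up to 4 per list and comparison, apart from TK1, TOP2A and MKI67. BLM, ATRIP, POLA2, PRIM2, overlapping genes and other members' fold changes were added after their values were seen. Alternatives were other pseudocounts, filters, scalings, variance estimates, library weights, a replicate block, a GC trend, only the groups compared, and omission of single libraries or of the 2 that stood apart. RNASEH2A and SAMHD1 were not analysed here.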

Additional observations from a re-analysis of the deposited data

Results flagged for a closer look

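In a group of 4 libraries, a highest or lowest value was singled out when its gap to the nearest other, divided by the range of the group, was above Dixon's 95% critical value, which chance gives in about 1 in 20 groups. Of 111 groups (37 genes in 3 groups), 22 met this. In 12 of them BPS1 replicate 4 was the highest library: the share of the range taken by the gap was 0.956 for MCM2, 0.836 for MCM3, 0.881 for MCM5, 0.899 for MCM7, 0.964 for CDT1, 0.963 for PCNA, 0.901 for RFC4, 0.860 for POLD1, 0.963 for FEN1, 0.925 for TYMS, 0.843 for SLBP and 0.966 for E2F1. These 12 genes include ring subunits, the clamp and a loader subunit, but neither POLA1 nor RRM1. In BPS1 replicate 1 RFC5 was lowest (0.954). In BPS2 replicate 1 stood lowest for MCM2 (0.928), CDT1 (0.888), POLD1 (0.865), UNG (0.884) and CCNE1 (0.949) and highest for DTL (0.835), and replicate 4 was highest for MCM3 (0.840). In control replicate 1 MCM3 was highest (0.924) and RRM1 lowest (0.830). The part of transcript GC content and of library quality in these values was not tested.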

How the results depend on the processing

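The members' counts of calls changed with the settings. For 18 single-gene results followed through every setting the direction held: of their values under alternatives, 399 kept their side of the threshold, 26 crossed it upward and 25 crossed it downward. The members' median log2 fold change, near 0, did change sign: in BPS1 against control it was 0.0433, and −0.00567 without BPS1 replicate 4, and in BPS2 against BPS1 it was −0.0115, and 0.0379 without BPS1 replicate 4, 0.00104 without BPS2 replicate 1, 0.00333 without BPS2 replicate 3, 0.0517 under library weights and 0.0379 without both libraries that stood apart. POLA1 and RRM1 were called in all 26 settings in BPS1 against control and in BPS2 against BPS1. For BPS1 against control, 877 genes were higher and 883 lower over all genes, with 1599 and 1783 under library weights, 524 and 543 under the replicate block, 453 and 454 with only the groups compared, and 1477 lower without control replicate 1 and BPS1 replicate 4; leaving out 1 library gave 544 to 1060 higher and 558 to 1312 lower, the lowest without control replicate 2 and the highest without BPS1 replicate 4. The 4 higher members became 2 with no filter, 2 under the replicate block and 1 with only the groups compared, and 2 to 3 with 1 library left out (2 without BPS1 replicate 3 or control replicate 1); the 1 lower member became 2 under quantile scaling, 4 under library weights, 4 without both libraries and 1 to 4 with 1 left out (4 without BPS1 replicate 4). For BPS2 against control, 168 were higher and 79 lower, with 788 and 508 under library weights, 81 and 37 under the replicate block, 94 and 42 with a GC trend removed under that block, 120 lower with the GC trend removed, 1152 and 758 without both libraries, and 78 to 356 higher and 36 to 180 lower with 1 left out, the lowest without BPS2 replicate 3 and the highest without BPS1 replicate 4. Its 0 higher members became 3 under library weights, 6 without both libraries and 0 to 1 with 1 left out (CDT1 without BPS1 replicate 4), and its lower members stayed at 0. For BPS2 against BPS1, 470 were higher and 333 lower, with 2133 and 1493 under library weights, 273 and 174 under the replicate block, 2107 and 1392 without both libraries, and 280 to 1120 higher and 180 to 644 lower with 1 left out, 280 being without BPS2 replicate 4, 180 without BPS1 replicate 3 and both highest counts without BPS1 replicate 4. Its 1 higher member became 4 under quantile scaling, 9 under library weights, 12 without both libraries and 1 to 5 with 1 left out (5 without BPS1 replicate 4); its 1 lower member became 2 with a minimum of 50, under library weights, with a GC trend removed and without both libraries, and 1 to 2 with 1 left out (2 without BPS1 replicate 4 or control replicate 1). The cause of these shifts was not tested. Libraries of the same number did not deviate together (correlations −0.272 to 0.103, median −0.0153, 12 pairs; 0 libraries correlated best with their own number), so the block pairs numbers only. A count model on recovered reads was not run, since 1 of the 37 members came out whole.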
